A study of Mus musculus with 4 samples.

Results

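The genes of the mitochondrial respiratory chain were followed across the cell types of mouse bone marrow and between marrow carrying Idh1-R132H and marrow carrying Idh1-WT. Members were all features whose symbol starts with mt-, Nduf, Uqcr or Atp5, is Cyc1, Cycs or Sdha to Sdhd, or starts with Cox4 to Cox8, pseudogenes left out. The rule used no measured value and found 107 of 27998 features, of which 13 are encoded in the mitochondrial genome and 94 in the nucleus. The nuclear members were 36 subunits and 7 assembly factors (Ndufaf genes) of complex I, the 4 subunits of complex II and 9 subunits of complex III. Complex IV had 11 common subunits and 8 tissue-limited isoforms with the related Cox7a2l, and complex V had 15 subunits. Atp5s and Atp5sl were listed under complex V by symbol alone, and the gene annotation names Atp5sl as Dmac2. The last nuclear member was the electron carrier cytochrome c (Cycs). The mitochondrial members were 7 subunits of complex I, 1 of complex III, 3 of complex IV and 2 of complex V.

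The respiratory chain passes electrons from NADH through complex I, or from succinate through complex II, to complex III and, by way of cytochrome c, to complex IV, which reduces oxygen. The proton gradient built up on the way drives complex V, the ATP synthase. Complexes I, III, IV and V are assembled from proteins made in the cytosol and in the mitochondrion, so their supply depends on transcription in both compartments, whereas complex II is wholly nuclear. In blood formation, quiescent stem cells are known to rely largely on glycolysis, committed progenitors to raise oxidative metabolism, and mature neutrophils to keep few mitochondria.

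Both genotypes shared the procedure. Tamoxifen given for 5 days recombined an EYFP reporter and, in the mutant, a heterozygous Idh1-R132H allele, and EYFP+ lineage-negative donor cells then repopulated irradiated hosts that received no supporting marrow; the chimeric marrow was taken 16 weeks later. The 2 Idh1-WT and 2 Idh1-R132H libraries, 1 per mouse, each pooled 4000 sorted cells of each of 3 EYFP+ populations: total hematopoietic cells (CD45.1+), LSK (Lin-Sca1+cKit+) and LK (Lin-cKit+). The labels used here do not name the driver of the recombinase. Idh1 makes cytosolic 2-oxoglutarate, and the R132H enzyme makes 2-hydroxyglutarate instead. Gene counts do not read that base, so the genotype labels could not be checked from them.

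The libraries held 40364701 to 56353466 unique molecular identifiers (UMIs, each a captured transcript). After filtering, 15431 cells remained with a median of 7129 to 9485 UMIs, and 11226 of them fell into 13 groups by marker genes that include no member. Each group had 26 or more cells in every library. All 13 expressed their own markers more often than other cells, except that the platelet receptor Gp6 was at 0 everywhere. The gate itself used these markers, so this follows from it and does not test the groups. Idh1-WT 1 and Idh1-R132H 1 shared 345 cell barcodes (8.98% of the smaller set) against 13 to 33 for the other pairs. Over all pairs, 329 barcodes were removed from Idh1-WT 1 as far smaller copies of another library's cells, and these 2 libraries then shared 17. The sort fixes how many cells of each kind enter, so numbers of cells are not compared. Levels of single genes are given in CPM, a gene's UMIs scaled to the total of its cell group and library. In counts summed over cells, fewer active cells and less RNA per cell cannot be told apart. Every library held both the female transcript Xist and transcripts of Y-linked genes. Xist stood at 660 (Idh1-WT 1), 491 (Idh1-WT 2), 497 (Idh1-R132H 1) and 357 CPM (Idh1-R132H 2), with overlap between the genotypes. Y-linked transcripts came to 8.76, 31.7, 42.1 and 53.4 CPM in that order, higher in both mutant libraries. The part of sex in the genotype differences was not tested.

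The mitochondrial share of UMIs and the nuclear subunits' share did not run in parallel across the 13 groups. Mitochondrial transcripts made up 2.73, 2.85, 2.69 and 2.82% of UMIs in stem-like cells (libraries always in the order Idh1-WT 1, Idh1-WT 2, Idh1-R132H 1, Idh1-R132H 2), and the 83 nuclear subunit genes 2.75, 2.67, 2.67 and 2.68%. In granulocyte-monocyte progenitor-like cells, the progenitors of neutrophils and monocytes, the mitochondrial share was 2.13, 2.04, 2.18 and 2.16% and the nuclear share 3.84, 3.81, 3.76 and 3.79%. The ratio of mitochondrial to nuclear UMIs was therefore 0.991, 1.07, 1 and 1.05 in stem-like and 0.554, 0.537, 0.582 and 0.57 in granulocyte-monocyte progenitor-like cells, with no overlap between the groups. Because UMI counts per gene depend on how each transcript is captured, the ratio is used only to set cell groups or libraries side by side and does not give copies of 1 subunit per copy of another.

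Mature B-like cells had the highest mean ratio of the 13 groups, 1.31 ± 0.141 (SD, n = 4), followed by stem-like cells at 1.03 ± 0.0373, T or NK-like cells at 0.954 ± 0.00917 and dendritic cell-like cells at 0.903 ± 0.026. The middle of the order held Flt3 multipotent progenitor-like cells at 0.782 ± 0.0357, B cell precursor-like cells at 0.729 ± 0.048, megakaryocyte progenitor-like cells at 0.686 ± 0.0154, basophil or mast-like cells at 0.646 ± 0.0326 and monocyte-like cells at 0.633 ± 0.0279. Granulocyte-monocyte progenitor-like cells at 0.561 ± 0.0196, erythroid progenitor-like cells at 0.529 ± 0.0111, neutrophil precursor-like cells at 0.499 ± 0.0548 and neutrophil-like cells at 0.461 ± 0.118 came last. Neighbours in this order overlap, except that mature B-like, stem-like, T or NK-like and dendritic cell-like cells are each set apart from the next, and monocyte-like from granulocyte-monocyte progenitor-like cells. In the plot of shares by cell group, erythroid progenitor-like cells carry the largest nuclear share, 3.99, 3.94, 3.9 and 4%, and neutrophil-like cells the smallest, 1.33, 1.23, 1.23 and 1.39%. Neutrophil-like cells are also the shallowest, with a median of 1534 UMIs per cell against 21567 in granulocyte-monocyte progenitor-like cells. The make-up of free RNA was taken from droplets without a cell. Its amount, 156 to 173 UMIs per cell, was set from S100a8 and S100a9 UMIs in mature B-like cells, all taken as free. The same amount was used for every group of a library. So estimated, free RNA came to 148, 86.1, 64.3 and 76.4% of the mitochondrial UMIs of neutrophil-like cells. Of their UMIs from all nuclear members, assembly factors and Cycs included, it came to 25.2, 25.5, 26.2 and 23.1%. With it subtracted, and no count allowed to turn negative, their ratio was 0.0138, 0.093, 0.278 and 0.166. These values lie below those of neutrophil precursor-like cells in every library, but the comparison cannot place the group. The estimate exceeded the measured mitochondrial UMIs in Idh1-WT 1 and took a larger part of mitochondrial than of nuclear UMIs in every library. A lower ratio thus follows from the subtraction itself.

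**Figure D1:**
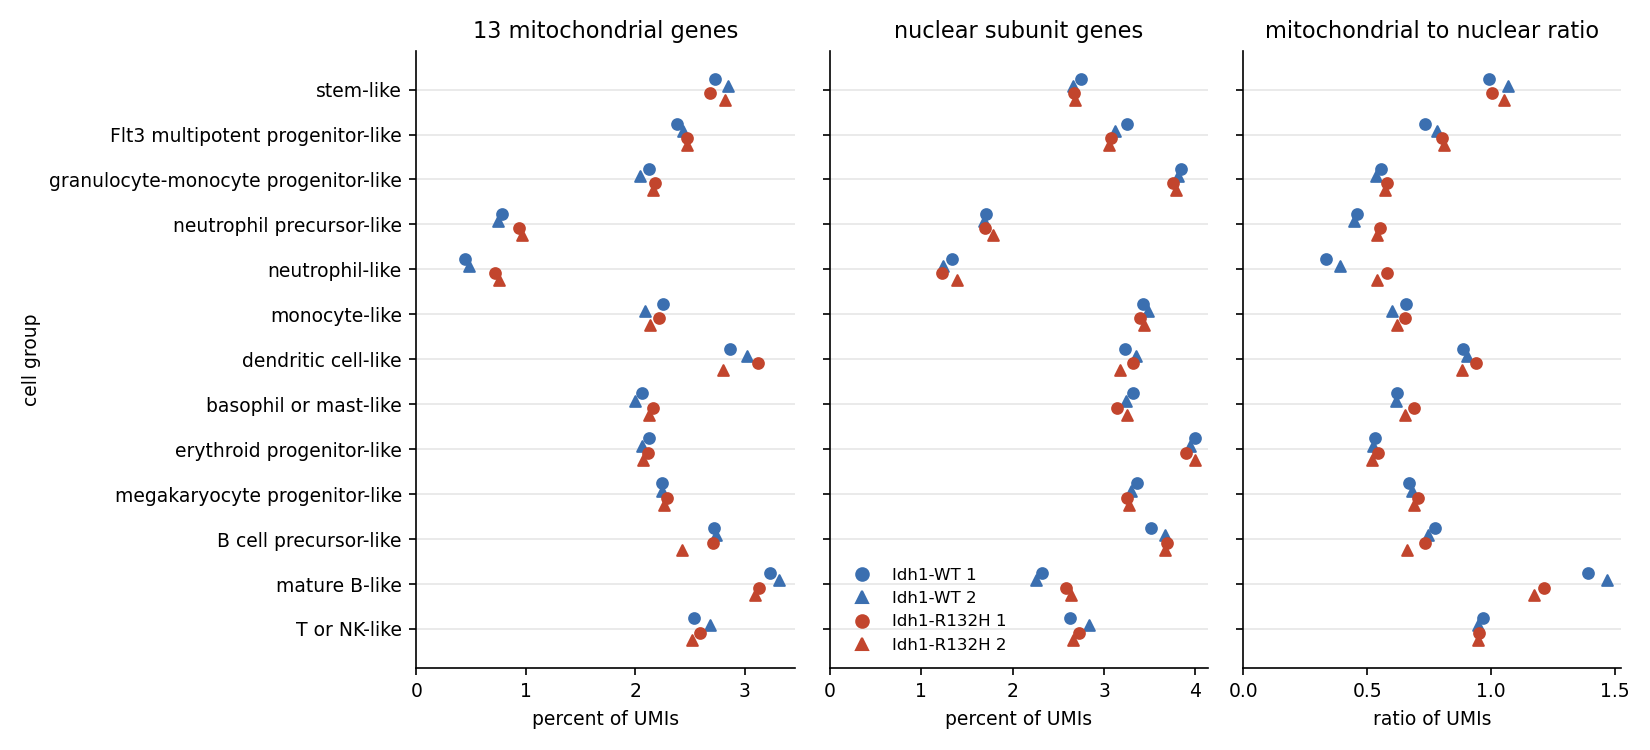
Percent of UMIs from the 13 mitochondrial genes (left) and the 83 nuclear subunit genes (middle), and the ratio of the first to the second (right), in 13 cell groups; each point is 1 library, blue for Idh1-WT and red for Idh1-R132H. Both shares are lowest in the neutrophil precursor-like and neutrophil-like groups, and the ratio is above 1 in mature B-like cells of every library.

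Complex II, the only complex with no mitochondrial subunit, was 0.0544, 0.0544, 0.0556 and 0.0542% of UMIs in stem-like cells, 0.0967, 0.0912, 0.0957 and 0.0974% in erythroid progenitor-like cells and 0.0227, 0.0205, 0.025 and 0.0266% in neutrophil-like cells. By complex, the ratio of mitochondrial to nuclear subunit UMIs was lower in granulocyte-monocyte progenitor-like than in stem-like cells in all 4 mixed complexes, without overlap of the libraries. It went from 0.446 ± 0.0128 to 0.336 ± 0.00549 for complex I, from 0.903 ± 0.0246 to 0.505 ± 0.0173 for complex III, from 2 ± 0.0837 to 0.927 ± 0.0439 for complex IV and from 0.871 ± 0.0336 to 0.477 ± 0.0139 for complex V (mean ± SD, n = 4). Complex IV thus showed the widest gap of the 4 in these values, and complex I the narrowest. No test was made of these sums, which are scores over chosen genes.

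The 13 mitochondrial genes are transcribed as long precursors, yet their relative levels differed between cell groups. The ratio of mt-Co1 UMIs (the catalytic subunit of complex IV) to mt-Nd1 UMIs (a core subunit of complex I) was 3.21, 3.74, 3.54 and 3.58 in stem-like, 1.6, 1.57, 1.72 and 1.76 in granulocyte-monocyte progenitor-like and 1.07, 1.04, 1.04 and 1.06 in erythroid progenitor-like cells. In neutrophil precursor-like cells it was 5.18, 5, 3.85 and 3.68, and in neutrophil-like cells 5.1, 5.01, 4.42 and 3.05, where free RNA came to the shares given above and its part in this ratio was not tested. Erythroid progenitor-like cells had the lowest ratio in every library and did not overlap the other groups named here. In these cells mt-Co1 stood at 2462, 2348, 2453 and 2415 CPM against 5264, 5897, 5436 and 5800.4 in stem-like cells, and mt-Nd1 at 2307, 2261, 2363 and 2281 against 1642, 1578, 1535 and 1618. The subunits mt-Nd4l and mt-Nd4, and mt-Atp8 and mt-Atp6, overlap on the mitochondrial genome, and nuclear copies of mitochondrial DNA share sequence with these genes, so counts of these 4 in particular are uncertain.

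Genes were tested between neighbouring cell groups with edgeR's quasi-likelihood test over 10605 genes, the library as a block, and 102 of the 107 members passed the filter on low counts. The 5 that did not were Cox7a1, Cox7b2, Cox8b, Cox8c and Ndufa4l2. From stem-like to granulocyte-monocyte progenitor-like cells, 84 members rose and 5 fell at an adjusted p under 0.05, where 71.3% of all genes were called, 35.4% higher and 35.9% lower. The median log2 change was 0.77 over 78 nuclear subunits, -0.00 over the mitochondrial genes and -0.02 over all genes. Every nuclear subunit of complex I (36 of 36), II (4 of 4) and V (15 of 15) that was tested rose. With RLE factors the split of all calls moved from 49.6% to 35.7% higher, and with library totals to 30.9%, while the members' split moved from 94.4% to 85.9% and 83.0%.

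Cytochrome c, the small haem protein that carries electrons from complex III to complex IV and also triggers the apoptosome, rose most among members whose mean log2 CPM reached 5. Cycs stood at 233, 238, 212 and 201 CPM in stem-like cells and at 851, 903, 747 and 706 CPM in granulocyte-monocyte progenitor-like cells. The libraries of the 2 groups do not overlap, and the log2 change was 2.16 (SE 0.0423). Also among the largest rises were Uqcrq of complex III (1.55), Cox5a of complex IV (1.50), Atp5g1, a gene for the c subunit of the ATP synthase ring (1.47), and Ndufa1 of complex I (1.31). Against this direction, Cox7a2l, which helps hold complexes III and IV together in supercomplexes, fell by 0.65 on the log2 scale, and Uqcrh, the hinge protein of complex III, by 0.12. Among mitochondrial genes mt-Nd1 (0.57) and mt-Nd4l (0.43) rose, mt-Nd3 (0.24) rose but gave -0.06 with library totals, and mt-Co1 fell by 0.51.

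The Cycs promoter is shown because its gene rose most and because it carries the recognition letters of NRF1, a nuclear factor known for driving respiratory chain genes. Uqcr11 is shown beside it as a nuclear member whose promoter held the letters of both NRF1 and GABPA, another such factor. Each run covers 250 bases before to 50 bases after the gene's start, in RefSeq's table for GRCm38.p6 (Cycs, chr6:50566520-50566819, minus strand; Uqcr11, chr10:80406772-80407071, minus strand), 5′ to 3′ in the gene's direction. Capitals mark CGCATGCGC (NRF1) and CCGGAAGT (GABPA).
Cycs: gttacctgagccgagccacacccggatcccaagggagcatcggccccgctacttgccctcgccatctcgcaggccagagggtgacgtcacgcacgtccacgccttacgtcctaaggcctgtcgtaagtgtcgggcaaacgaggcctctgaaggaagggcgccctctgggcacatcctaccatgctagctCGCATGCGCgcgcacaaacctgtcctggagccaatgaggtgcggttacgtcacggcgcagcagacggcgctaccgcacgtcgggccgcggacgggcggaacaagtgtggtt
Uqcr11: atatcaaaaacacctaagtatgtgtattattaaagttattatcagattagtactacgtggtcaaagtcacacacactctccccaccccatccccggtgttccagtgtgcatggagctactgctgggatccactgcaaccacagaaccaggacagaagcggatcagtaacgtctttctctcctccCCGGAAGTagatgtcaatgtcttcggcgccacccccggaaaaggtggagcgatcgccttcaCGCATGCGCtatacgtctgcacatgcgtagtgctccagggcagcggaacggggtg
A RefSeq promoter was matched for 77 of the 94 nuclear members. The letters CGCATGCGC were searched on both strands and chosen after the Cycs promoter had been seen. A gene counted if any of its promoter windows held the letters. They were in 11 of the 77 members (14.3%) against 1.95% of all 27025 genes with a promoter of this length. Besides Cycs and Uqcr11 these were Ndufa8, Ndufa11, Ndufaf4, Ndufaf5, Uqcrc1, Cox6a1, Atp5g2, Atp5k and Atp5l. The letters CCGGAAGT were in 5 (6.49%; Ndufs3, Uqcrh, Uqcr11, Atp5h and Cox8a) against 4.31%, and the YY1 motif, also on both strands, in 5 (6.49%; Ndufa9, Ndufs4, Ndufs6, Ndufs7 and Atp5sl) against 0.755%. With the median over windows taken for each gene, the nuclear members held a median of 20 CG steps (a C followed by a G, counted on 1 strand). Over all genes with a promoter the median was 7. A match describes the sequence and does not show a bound factor.

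Erythroid progenitor-like cells, the precursors of red cells, which make haem inside mitochondria, followed the same direction for nuclear genes. Against stem-like cells 85 members rose and 7 fell (65.2% of all genes called, 29.4% higher and 35.8% lower), with a median of 0.71 over nuclear subunits, -0.13 over mitochondrial genes and -0.11 over all genes. The largest rises were Cox6b2 (2.10, SE 0.0777), Cycs (1.80), Atp5g1 (1.76), the succinate dehydrogenase anchor Sdhd (1.49) and the cytochrome c1 gene Cyc1 of complex III (1.41). Sdhd went from 136, 111, 125 and 118 to 314, 289.8, 314 and 325 CPM and Cyc1 from 153, 153, 149 and 152 to 377, 373, 362 and 361, without overlap. Of the mitochondrial genes mt-Nd1 (0.67), mt-Nd4l (0.43), mt-Nd2 (0.23) and mt-Nd3 (0.18, but -0.01 with clusters in place of gates) rose, while mt-Co1 fell by 1.08, mt-Nd5 by 0.57, mt-Co3 by 0.37 and mt-Co2 by 0.28.

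In the remaining early groups the changes were smaller. In Flt3 multipotent progenitor-like cells, which lead to lymphoid and myeloid fates, 66 members rose and 5 fell against stem-like cells (35.8% of all genes called, 19% higher and 16.8% lower), with a nuclear median of 0.24 and a mitochondrial median of -0.08. Ndufa4, a subunit now placed in complex IV, went from 893, 844, 927 and 957 to 2072, 1696, 1794 and 1614 CPM, a log2 change of 1.04 (SE 0.0621). In megakaryocyte progenitor-like cells, the precursors of platelets, 69 members rose and 12 fell (36.3% called, 18.4% higher and 17.9% lower). The nuclear median there was 0.31 and the mitochondrial median -0.18, and of the mitochondrial genes 8 fell and 0 rose at the adjusted threshold, among them mt-Co1 (-0.58) and mt-Nd5 (-0.46). Cycs rose by 0.91 in the first and by 0.91 in the second. With RLE factors the share of higher calls among all genes moved from 53.1% to 37.3% and from 50.8% to 36.2%, and the members' share from 93.0% to 79.0% and from 85.2% to 80.3%.

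**Figure D2:**
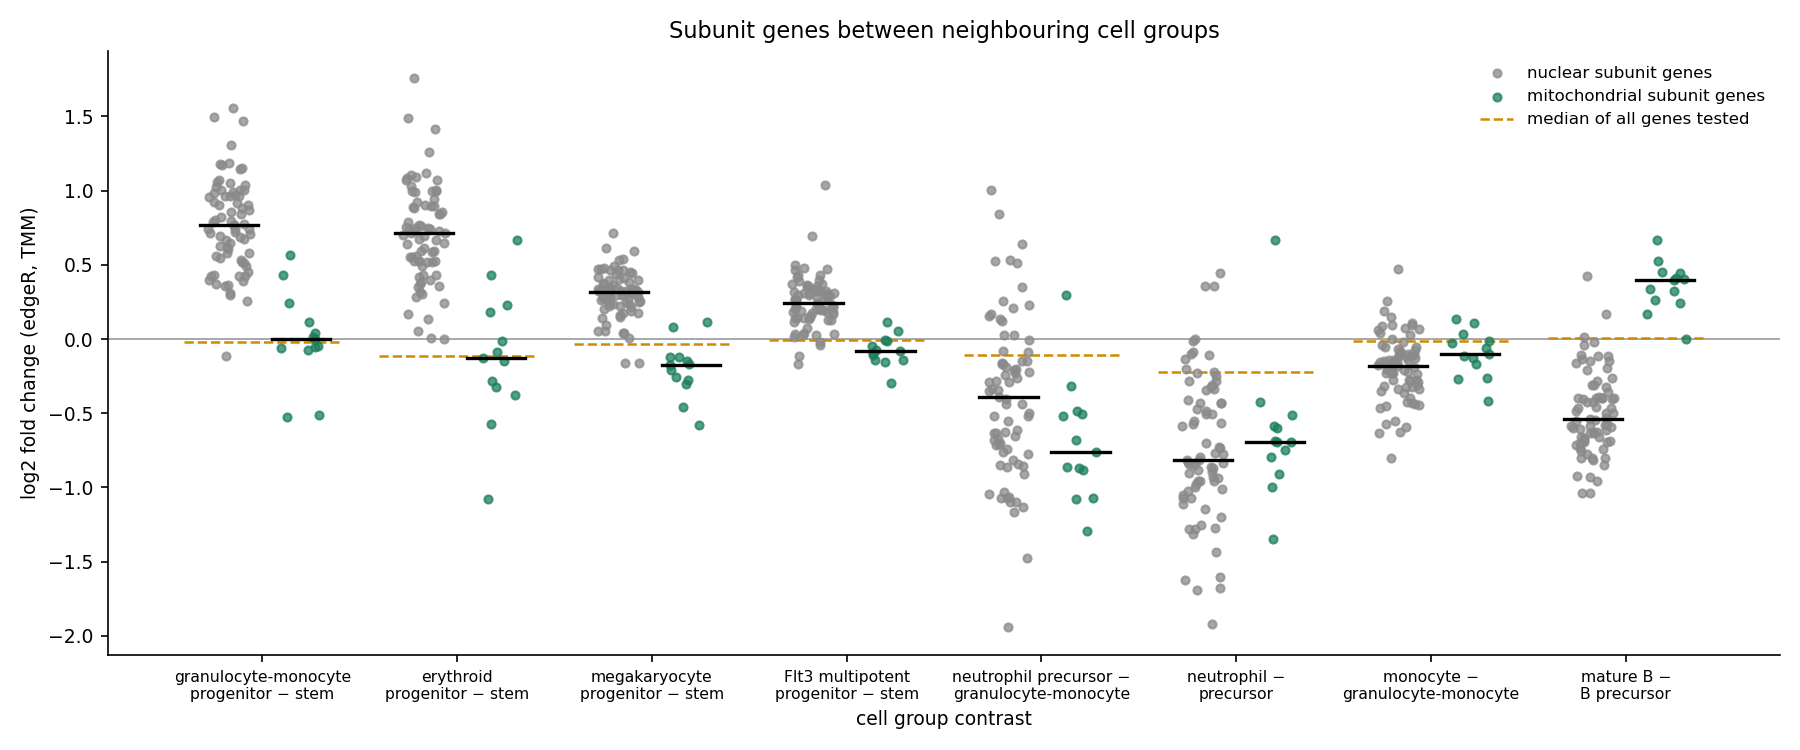
Log2 fold change of each tested subunit gene between neighbouring cell groups (edgeR, TMM), nuclear genes in grey and mitochondrial genes in green; black bars are their medians and dashed lines the median of all genes tested. In the first 4 contrasts the nuclear medians lie above the mitochondrial ones and in mature B-like cells below them; tissue-limited isoforms are left out of the points and bars.

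Along the neutrophil line the direction turned. From granulocyte-monocyte progenitor-like to neutrophil precursor-like cells, 78 members fell and 16 rose (69.2% of all genes called, 32.7% higher and 36.5% lower), with medians of -0.42 over nuclear subunits, -0.76 over mitochondrial genes and -0.11 over all genes. In the precursors the 8 genes used as their markers made up 151620.0, 154185, 144573 and 151513 CPM, which lowers every other gene's share. With library totals instead of TMM the median of all genes was -0.92, 100 members were lower and 1 higher, and the split of all calls moved from 47.2% to 20.1% higher. Relative to the median of all genes the nuclear subunits lay at -0.32 with TMM and -0.35 with library totals, and the mitochondrial genes at -0.65 and -0.69.

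Of the 7 Ndufaf genes, factors that build complex I, 5 fell and 1, Ndufaf3, rose (0.51). Ndufaf4 stood at 58.5, 60.9, 60.2 and 52.4 CPM in granulocyte-monocyte progenitor-like cells and at 3.07, 5.27, 7.84 and 4.9 in neutrophil precursor-like cells, a log2 change of -2.66 (SE 0.177). Ndufaf2 changed by -2.42, the ring gene Atp5g1 by -1.94, the complex I subunit Ndufa12 by -1.48 and Cycs by -1.47. The other 2 genes for the same ring protein, Atp5g2 and Atp5g3, changed by -1.05 and -0.85. Of the 16 members called higher 11 belong to complex I (Ndufaf3 included), 3 to complex IV and 2 to complex V. Among them were Ndufv3 (1.00), Ndufb7 (0.84), Ndufa13 (0.64), Ndufs4 (0.53) and Ndufa3 (0.52), of complex I, and Cox6a1 (0.26), Cox7a2 (0.12) and mt-Co1 (0.30) of complex IV. With library totals Cox7a2 gave -0.72, Cox6a1 -0.59, Ndufb7 -0.01, Ndufa13 -0.21, Ndufs4 -0.31, Ndufa3 -0.33 and mt-Co1 -0.55. In CPM Ndufb7 was 445, 463, 434 and 450.5 before and 449, 430.0, 426 and 473 after, values that overlap.

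From neutrophil precursor-like to neutrophil-like cells 77 members fell and 4 rose (35.5% of all genes called, 14.1% higher and 21.4% lower). The medians were -0.82 over nuclear subunits, -0.69 over mitochondrial genes and -0.22 over all genes. Ndufa11, an accessory subunit of complex I, fell by 1.92, Ndufc1 by 1.69, Uqcrb of complex III by 1.62 and Cycs by 1.22 on the log2 scale. Ndufa7, Ndufb9 of complex I and Atp5l of the ATP synthase were higher by 0.44, 0.36 and 0.36, and Cox7a2l by 0.27. Cox4i1 fell by 0.23 with TMM but gave 0.18 with RLE factors, which moved the split of all calls from 39.8% to 65.7% higher. Without a limit on the mitochondrial share of a barcode, the sign turned here for 10 of the mitochondrial genes called. Examples are mt-Nd1, from -0.70 to 0.57, and mt-Cytb, from -0.59 to 0.55. With the free RNA given above subtracted, both fell further. Its share of mitochondrial UMIs is larger in neutrophil-like than in precursor cells, so such a fall follows from the subtraction itself. In monocyte-like cells, against granulocyte-monocyte progenitor-like cells, 64 members fell and 10 rose (58.2% called, 29.2% higher and 28.9% lower), with medians of -0.18 and -0.10, Atp5g1 at -0.80 and the iron-sulfur subunit Sdhb of complex II at 0.47.

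In the B cell line the 2 genomes moved in opposite directions. From B cell precursor-like to mature B-like cells, 8 of the 13 mitochondrial genes rose and 0 fell, whereas 53 of 78 nuclear subunits fell and 1, Ndufa6, rose (18.1% of all genes called, 8.18% higher and 9.9% lower). The median log2 change was 0.40 over mitochondrial genes, -0.52 over nuclear subunits and 0.00 over all genes, and with library totals 0.31, -0.61 and -0.05. mt-Co1 was 4419, 4430.3, 3967 and 3561 CPM in the precursors and 5507, 5361, 5041 and 4984 in mature B-like cells, without overlap, a change of 0.44 (SE 0.0629). mt-Nd5 rose by 0.67, mt-Nd2 by 0.52 and mt-Cytb by 0.45. Sdhd went from 185, 176, 234 and 181 to 73.9, 85.3, 69.8 and 129 CPM, without overlap, a change of -1.04 (SE 0.193). Ndufc1 fell by 1.04, Ndufv1, which holds the NADH site of complex I, by 0.96 and Uqcr11 by 0.93. Free RNA, its amount set from the mature B-like cells themselves, could supply 15.3, 10.2, 10 and 12.2% of their mitochondrial UMIs. In B cell precursor-like cells it could supply 6.33, 4.02, 3.93 and 5.43%. After free RNA was subtracted 56 members were called in place of 63, and no sign turned among the named genes called before. However, 4 mitochondrial genes lost their call: mt-Co1 (0.46, edgeR adjusted p = 0.064), mt-Co2 (0.35, 0.17), mt-Atp6 (0.41, 0.23) and mt-Co3 (0.23, 0.58).

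Several subunits of complex IV have a second gene used in few tissues. Cox6a2, the heart and muscle form of Cox6a, was 1565, 1569, 1405 and 1203 CPM in dendritic cell-like cells, while its mean was 20.5 or less in each of the other 12 groups. It was found in 80 of 116 dendritic cell-like cells (69.0%, exact 95% interval 59.7 to 77.2%, median 4306 UMIs per cell) against 1 of 344 basophil or mast-like cells (0.291%, median 10730 UMIs), and such intervals cover counting error only. Of the 90 dendritic cell-like cells with a UMI of Siglech, the marker of plasmacytoid dendritic cells, 78 had Cox6a2 (86.7%), and of the other 26 only 2 had it, although these were deeper (median 9389.5 against 4119.5 UMIs). Flt3 multipotent progenitor-like cells had it in 98 of 1085 cells (9.03%) and at 9.2, 28.5, 22.2 and 22.1 CPM, against 0.793, 0.615, 0.723 and 0.379 in stem-like cells (log2 change 4.93, SE 0.496). The common form Cox6a1 was present at the same time, at 645, 660.2, 568 and 705 CPM in dendritic cell-like cells.

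Cox6b2, known as the testis form of Cox6b, followed another pattern. It was 355, 322, 351 and 389 CPM in erythroid progenitor-like cells, where 424 of 504 cells held it (84.1%), 129, 135, 127 and 161 in basophil or mast-like cells and 122, 120.4, 124 and 118 in megakaryocyte progenitor-like cells. In stem-like cells it was 97.6, 83, 87.5 and 97.5, and in mature B-like cells 4.93, 8.98, 41.9 and 11.3. The erythroid values stand above every other group in every library. Cox4i2, the form linked to low oxygen, reached a mean of 6.94 CPM in stem-like and 6.79 in megakaryocyte progenitor-like cells, Cox7a1 of heart and muscle had a mean of 7.52 or less in every group, and Cox7b2, Cox8b, Cox8c and Ndufa4l2 had 0 UMIs in the 11226 gated cells. The promoters of the Cox6b pair are shown because the 2 genes differ in pattern: Cox6b1 (chr7:30626065-30626364, minus strand) holds 17 CG steps and Cox6b2 (chr7:4753045-4753344, minus strand) 10, and none of the 3 motifs was found in either window.
Cox6b1: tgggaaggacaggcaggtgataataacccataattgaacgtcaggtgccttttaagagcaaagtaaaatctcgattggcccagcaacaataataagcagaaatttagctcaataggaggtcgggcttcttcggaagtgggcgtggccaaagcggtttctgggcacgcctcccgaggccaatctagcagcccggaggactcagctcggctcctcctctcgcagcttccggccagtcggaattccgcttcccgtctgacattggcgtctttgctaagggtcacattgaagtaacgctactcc
Cox6b2: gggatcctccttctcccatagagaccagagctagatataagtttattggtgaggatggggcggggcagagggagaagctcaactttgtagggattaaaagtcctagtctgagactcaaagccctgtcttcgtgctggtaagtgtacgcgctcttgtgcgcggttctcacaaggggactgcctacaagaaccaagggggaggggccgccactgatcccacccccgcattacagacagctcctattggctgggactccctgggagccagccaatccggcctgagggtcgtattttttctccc
These 2 sequences are from the same RefSeq table and have no capitals because no motif was marked.

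**Figure D3:**
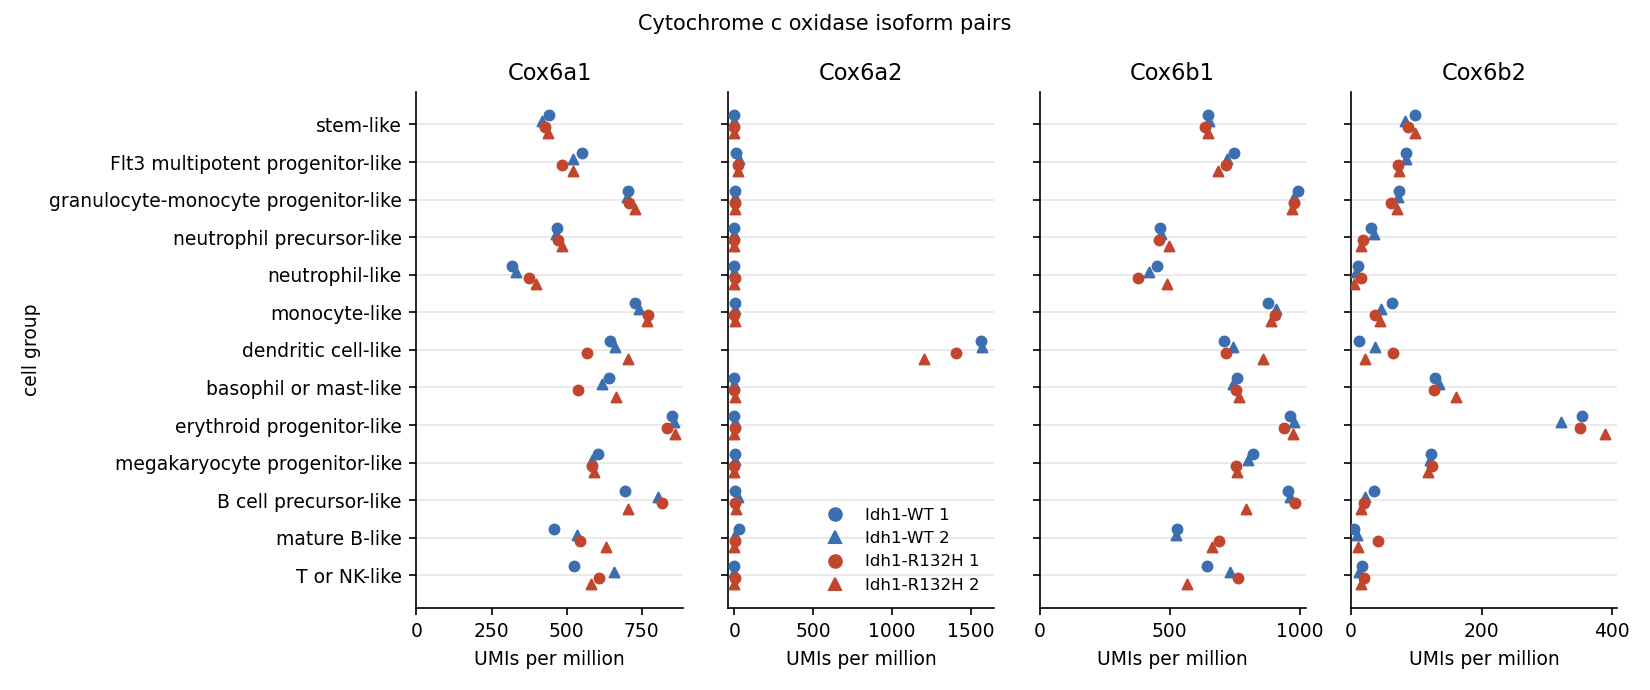
CPM of Cox6a1, Cox6a2, Cox6b1 and Cox6b2 (each panel has its own scale) in 13 cell groups; each point is 1 library, blue for Idh1-WT and red for Idh1-R132H. Cox6a2 stands out in dendritic cell-like cells and Cox6b2 in erythroid progenitor-like cells in all 4 libraries.

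Cox7a2l had its highest means in stem-like (638 ± 10.6, SD, n = 4) and T or NK-like cells (633 ± 59.3) and its lowest in neutrophil precursor-like cells (144 ± 12.1 CPM). Over 52 points (13 groups in 4 libraries) and 3306 genes, the non-members whose log2 level was most like the median nuclear subunit were 2010107E04Rik (Pearson r = 0.978), which encodes a small ATP synthase protein named outside the rule, the RNA-binding protein gene Ybx1 (0.972), the splicing gene Snrpf (0.968), the cyclophilin gene Ppia (0.967) and Eny2 (0.966). These points share libraries and depth, so the values describe and are not tested.

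Idh1-R132H was compared with Idh1-WT within each group by edgeR over all genes of that group, 2 libraries against 2. Members were called in the 3 groups of the neutrophil line and in none of the other 10. In granulocyte-monocyte progenitor-like cells 1 of 103 members tested was called higher and 1 lower (0.755% of all genes called, 0.291% higher and 0.464% lower). Cycs was 851, 903, 747 and 706 CPM. Both mutant libraries lay below both others, and the log2 change was -0.25 (SE 0.0373, edgeR adjusted p = 3.5e-04). It stayed called under all 20 alternatives run, between -0.29 and -0.22. mt-Co2, a copper-binding subunit of complex IV, was 2036, 1934, 2199 and 2217, higher in both mutant libraries, with a change of 0.17 (SE 0.0353, edgeR adjusted p = 0.016). It lost its call under 5 of 20 alternatives, where the change went down to 0.08 and the edgeR adjusted p was 0.12 without Idh1-WT 2, 0.24 without Idh1-R132H 2, 0.20 with a replicate block, 0.10 with clusters in place of gates and 0.42 with no mitochondrial limit. The median change was 0.04 over mitochondrial genes, -0.01 over nuclear subunits and 0.01 over all genes.

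In neutrophil precursor-like cells 6 of 95 members tested were called higher and 1 lower (0.358% of all genes called, 0.149% higher and 0.209% lower), and the 6 higher were all mitochondrial. mt-Nd1 was 406, 396, 604 and 634 CPM. Both mutant libraries lay above both others, and the change was 0.60 (SE 0.081, edgeR adjusted p = 1.0e-05). mt-Nd3, another complex I subunit, was 31.6, 29.9, 62.7 and 58.4, again without overlap, with a change of 0.94 (SE 0.171, edgeR adjusted p = 0.0019). mt-Cytb, the mitochondrial subunit of complex III, was 601, 565, 783 and 775, with a change of 0.39 (SE 0.0784, edgeR adjusted p = 0.0068). The remaining calls were mt-Nd2 at 0.51 (SE 0.119, edgeR adjusted p = 0.03), mt-Nd4 at 0.37 (SE 0.0857, edgeR adjusted p = 0.029) and mt-Co2 at 0.34 (SE 0.076, edgeR adjusted p = 0.027). mt-Co1 (0.17, SE 0.071, edgeR adjusted p = 0.67), mt-Co3 (0.26, SE 0.0712, edgeR adjusted p = 0.14) and mt-Atp6 (0.28, SE 0.0731, edgeR adjusted p = 0.12) did not pass. The 1 lower member was Cox6b2 at 31.2, 34.6, 17.6 and 14.7, resting on 130 UMIs in Idh1-WT and 63 in Idh1-R132H, with a change of -1.06 (SE 0.225, edgeR adjusted p = 0.015).

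The nuclear subunits did not follow. Their median change in neutrophil precursor-like cells was 0.02 against 0.31 over the mitochondrial genes and 0.00 over all genes, and their summed share was 1.71, 1.68, 1.7 and 1.78%, which overlaps. The mitochondrial share was 0.785, 0.75, 0.937 and 0.966%, and the ratio of mitochondrial to nuclear UMIs 0.458, 0.446, 0.551 and 0.541 in the same order, higher in both mutant libraries. By complex the ratio was 0.153, 0.158, 0.217 and 0.213 for complex I, 0.36, 0.35, 0.481 and 0.449 for complex III, 0.958, 0.915, 1.11 and 1.07 for complex IV and 0.363, 0.343, 0.414 and 0.433 for complex V. The mutant libraries were above the others in each of the 4.

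In neutrophil-like cells 4 of 84 members tested were called higher and 0 lower (0.312% of all genes called, 0.139% higher and 0.174% lower), all 4 mitochondrial; 11 members had an unadjusted p under 0.05, and DESeq2 called 3 members. mt-Atp6, the proton channel subunit of the ATP synthase, was 863, 933, 1598 and 1559.5 CPM, without overlap, with a change of 0.78 (SE 0.113, edgeR adjusted p = 5.1e-05). mt-Co3 was 988, 1068, 1686 and 1747, with a change of 0.71 (SE 0.109, edgeR adjusted p = 1.6e-04). mt-Nd1 was 236, 250.2, 406 and 537, with a change of 0.92 (SE 0.157, edgeR adjusted p = 5.9e-04), and mt-Co2 changed by 0.67 (SE 0.131, edgeR adjusted p = 0.0048). All 10 mitochondrial genes tested were higher on average in Idh1-R132H, with a median of 0.62 against -0.02 over nuclear subunits and -0.01 over all genes. The share of UMIs was 0.446, 0.48, 0.715 and 0.75% for mitochondrial genes and 1.33, 1.23, 1.23 and 1.39% for nuclear subunits.

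**Figure D4:**
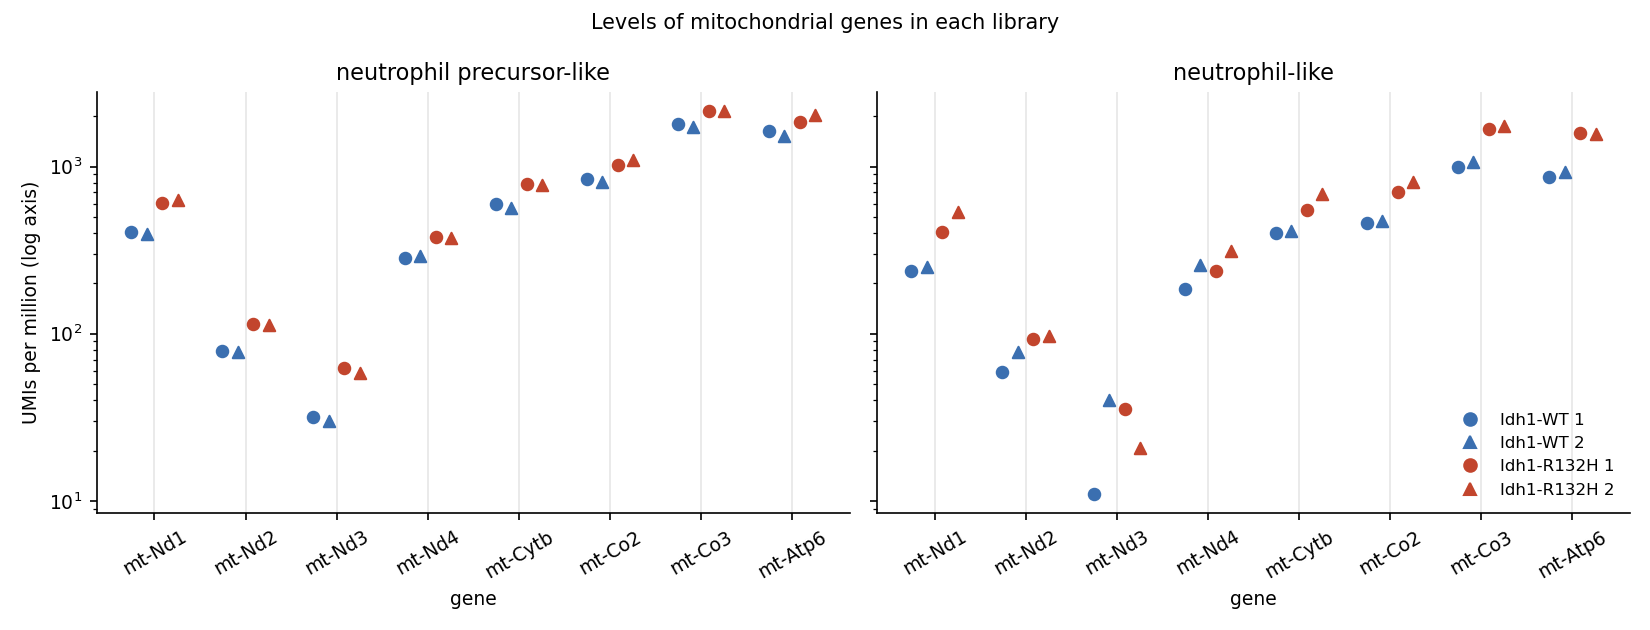
CPM (log axis) of 8 mitochondrial genes in neutrophil precursor-like (left) and neutrophil-like cells (right); each point is 1 library, blue for Idh1-WT and red for Idh1-R132H. In the left panel both mutant libraries stand above both others for all 8 genes, and in the right panel mt-Nd3 and mt-Nd4 overlap.

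**Figure D5:**
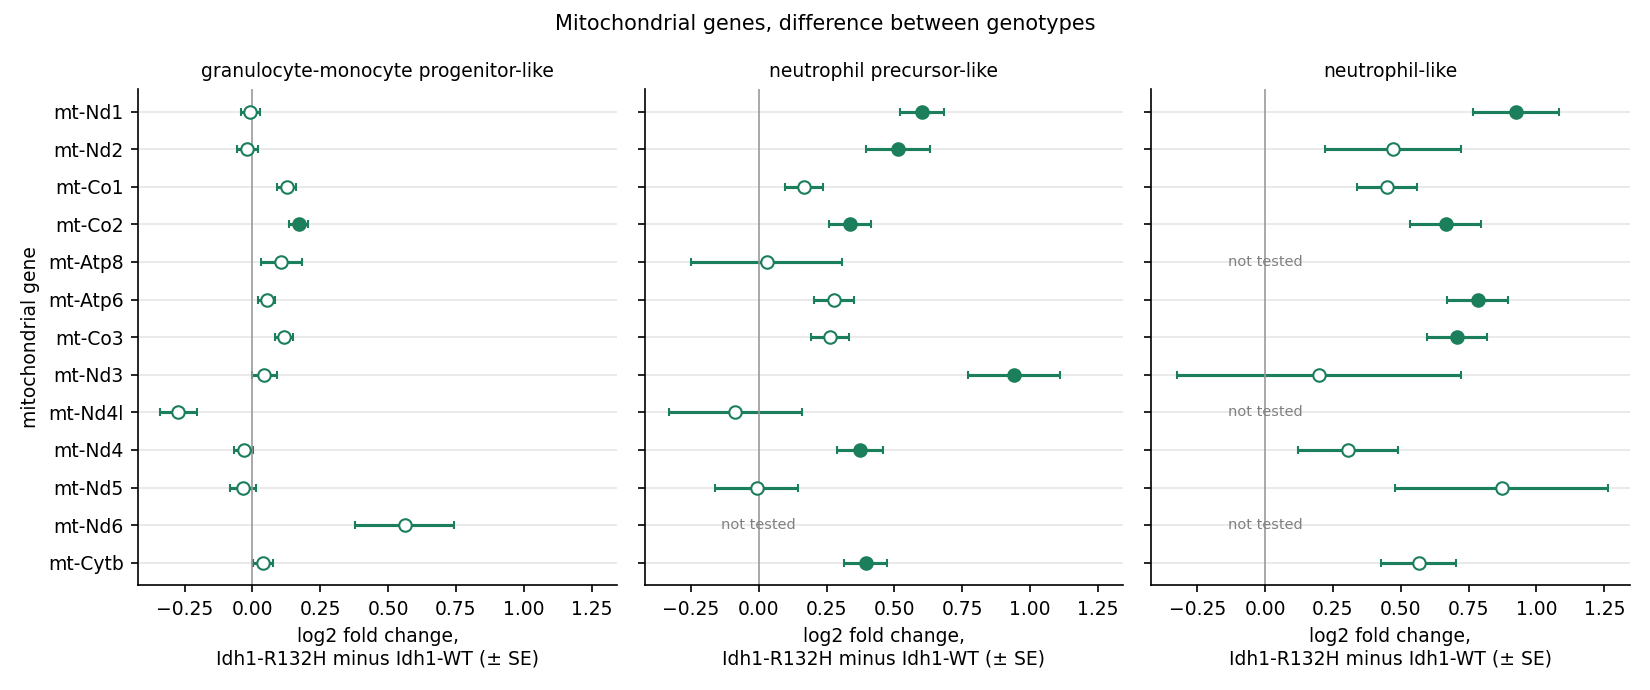
Log2 fold change of each mitochondrial gene, Idh1-R132H minus Idh1-WT, with its standard error, in 3 cell groups of the neutrophil line (edgeR, 2 libraries against 2); filled points have an adjusted p under 0.05. Called points number 1 in granulocyte-monocyte progenitor-like, 6 in neutrophil precursor-like and 4 in neutrophil-like cells.

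These calls rest on few UMIs and on few cells. Neutrophil precursor-like cells held 47.6, 44.5, 55.8 and 61.7 mitochondrial UMIs per cell and neutrophil-like cells 7.37, 7.77, 12.1 and 12.2. Free RNA, with its amount per cell set from mature B-like cells, came to 22.9, 15.1, 13.9 and 15.1% of that in precursors. In neutrophil-like cells it came to 148, 86.1, 64.3 and 76.4% and exceeded the measured value in Idh1-WT 1. After it was subtracted 2 members were called in neutrophil-like cells, one of them mt-Nd1 with a change of 8.76. The changes of mt-Atp6, mt-Co3 and mt-Co2 were then 9.96, 4.17 and 2.84, fitted values that depend on the prior count where a library is near 0, and were not called (edgeR adjusted p = 0.97, 0.90 and 0.98). Free RNA held 6.47%, 4.28%, 4.50% and 5.49% mitochondrial UMIs in the order of the libraries, values that overlap between the genotypes. The 5% of precursor cells with most mitochondrial UMIs held 24.1, 23.5, 29.4 and 31.4% of them, and in neutrophil-like cells 21.4, 33.9, 37.9 and 39.9%. Without these cells, an alternative chosen after seeing the data, mt-Nd1 changed by 0.09 in precursors (edgeR adjusted p = 0.89), and 1 member was called in precursors and 0 in neutrophil-like cells. The median cell's mitochondrial percent was 0.561, 0.543, 0.628 and 0.627 in precursors and 0.371, 0.328, 0.412 and 0.439 in neutrophil-like cells, higher in both mutant libraries of each.

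Markers of neighbouring cells were measured in the same sums. The 8 granulocyte-monocyte progenitor markers, each with UMIs, summed to 3186, 2477, 3380.0 and 3705 CPM in the precursors, and the 9 monocyte markers to 24.1, 24.6, 32 and 70.3. In neutrophil-like cells the 8 precursor markers summed to 11657, 11998, 13160.3 and 14464 and the monocyte markers to 95.9, 95.1, 118 and 171, so that all 4 sums were higher in both mutant libraries than in both Idh1-WT libraries. The part of these cells in the genotype differences was not tested. The gated precursors were also split by 2 clusters, of 472 deeper and 812 shallower cells, counting cells outside the gate. Those in the deeper cluster alone gave a ratio difference of 0.0323 and 2 calls, and those in the shallower 0.152 and 3 calls. All gated precursors gave 0.0942 and 7 calls, and both splits were chosen after seeing the data. With at most 5% instead of 10% mitochondrial UMIs per barcode 1 member was called in precursors, and with doublets kept 0.

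Leaving out any 1 library kept mt-Nd1 called in precursors and mt-Nd1, mt-Atp6 and mt-Co3 in neutrophil-like cells, where the lone library of a genotype is assumed to vary like the pair. In precursors mt-Nd3 lost its call without Idh1-R132H 1 (adjusted p = 0.099, edgeR), mt-Cytb without Idh1-WT 2, Idh1-R132H 1 or Idh1-R132H 2 (0.41, 0.19 and 0.051), Cox6b2 without the same 3 (0.19, 0.12 and 0.49), and mt-Nd2, mt-Nd4 and mt-Co2 without any 1 of the 4 (0.16 to 0.63). In neutrophil-like cells mt-Co2 lost it without Idh1-WT 1 (0.12) or Idh1-R132H 2 (0.082). No alternative turned the sign of a called gene.

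Whether the genotype difference itself changed between neighbouring groups was tested with a genotype by cell group term. The term came from a single fit over all 13 groups of the same 4 libraries, with the library as a block. Spread was thus pooled over groups that differ in it and estimated from sums that share mice. The adjusted p below therefore do not measure spread between mice as the fits of 2 libraries against 2 do, and may be too small. Between neutrophil precursor-like and granulocyte-monocyte progenitor-like cells 5 members differed (0.104% of all genes called, 11 of 10605; 0.0754% higher and 0.0283% lower), all mitochondrial and all more raised in the precursors: mt-Nd1 by 0.61 (SE 0.0809, edgeR adjusted p = 3.5e-09), mt-Nd2 by 0.52 (SE 0.125, edgeR adjusted p = 0.043), mt-Nd3 by 0.88 (SE 0.175, edgeR adjusted p = 0.0022), mt-Nd4 by 0.40 (SE 0.0887, edgeR adjusted p = 0.016) and mt-Cytb by 0.35 (SE 0.078, edgeR adjusted p = 0.016). In the progenitors mt-Nd1 was 1968, 1904, 1920.1 and 1885 CPM, with overlap and a change of -0.01. Between neutrophil-like and precursor-like cells 1 member differed (0.0189% called), mt-Atp6 by 0.47 (SE 0.0953, edgeR adjusted p = 0.015). Without Idh1-R132H 2 the first 5 had adjusted p from 0.12 to 1.0 and mt-Atp6 1.0, while the 6 differences themselves stayed between 0.35 and 0.97. Without Idh1-WT 1 mt-Nd2, mt-Nd4, mt-Cytb and mt-Atp6 were not called either (0.12 to 1.0), without Idh1-R132H 1 the same 4 (0.064 to 1.0), and without Idh1-WT 2 mt-Nd2 (0.088). In the other 6 contrasts, where 0 to 0.0849% of all genes were called, edgeR called 0 members, with 1 to 9 members at an unadjusted p under 0.05, and DESeq2 called 1 member in the B line and 0 in the other 5.

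In the other 10 groups edgeR and DESeq2 each called 0 members between the genotypes. The percent of all genes called was 0.142 in stem-like, 0.0316 in Flt3 multipotent progenitor-like, 0.283 in monocyte-like, 0 in dendritic cell-like, 0.0297 in basophil or mast-like, 0.15 in erythroid progenitor-like, 0.0462 in megakaryocyte progenitor-like, 0.183 in B cell precursor-like, 0.794 in mature B-like and 0 in T or NK-like cells. Members at an unadjusted p under 0.05 numbered between 0 (T or NK-like) and 8 of 99 (basophil or mast-like). Counts simulated for these 10 groups, with genes drawn from all those tested, let edgeR recover few log2 changes of 0.5. The share recovered ran from 6.1% in basophil or mast-like to 27% in monocyte-like cells. It was 62.6% in granulocyte-monocyte progenitor-like, 28.7% in neutrophil precursor-like and 8.6% in neutrophil-like cells. The absence of calls thus does not show an absence of change. In erythroid progenitor-like cells, where the nuclear share is largest, the mitochondrial share was 2.12, 2.06, 2.12 and 2.07% and the ratio 0.532, 0.523, 0.543 and 0.518, with overlap. In mature B-like cells the ratio was 1.39, 1.47, 1.21 and 1.17, lower in both mutant libraries, the nuclear share 2.32, 2.25, 2.58 and 2.64%, higher in both, and 7 of 88 members tested had an unadjusted p under 0.05.

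Other genes of the pathway were followed by lists, with cell cycle and glycolysis lists beside them, and each count below is read against the percent of all genes called given for its contrast. From stem-like to granulocyte-monocyte progenitor-like cells 71 of 76 mitochondrial ribosomal protein genes rose and 2 fell, 15 of 16 genes of protein import and carriers rose and 1 fell, and 12 of 14 genes of the citric acid cycle rose and 1 fell. The 3 ATP synthase parts named outside the rule rose, 20 of 32 further assembly factors rose and 6 fell, 6 of 12 genes of mitochondrial DNA and RNA handling rose and 2 fell, and of 7 nuclear regulators 2 rose and 2 fell. Of 18 cell cycle genes 17 rose and 0 fell, and of 20 glycolysis genes 14 rose and 6 fell. Erythroid progenitor-like cells gave like counts for the ribosomal proteins (71 rose, 1 fell), but 5 glycolysis genes rose and 10 fell. In neutrophil precursor-like cells 70 ribosomal protein genes fell and 4 rose, all 15 import genes called fell, and 9 of the 12 mitochondrial gene expression genes fell while 2 rose. At the same step 14 cell cycle genes rose and 4 fell, and 10 glycolysis genes rose and 6 fell. The lists were counted with TMM only. With library totals the higher share of all calls at this step went from 47.2% to 20.1%, so rises there depend on the scaling. In neutrophil-like and in mature B-like cells all 18 cell cycle genes fell against their precursors. Between the genotypes 3 of 18 cell cycle genes and 1 of 20 glycolysis genes were called lower in granulocyte-monocyte progenitor-like cells, where 0.464% of all genes were. In erythroid progenitor-like cells 2 of 18 cell cycle genes were called lower, against 0.15% of all genes called either way.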

How the data were processed

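Single-cell 3′ RNA was measured in 4 libraries. The deposited values are raw UMI counts per gene and barcode, before any cell filter; per the submitters' processing notes, Cell Ranger 4.0.0, Seurat and the builds GRCm38 and mm10 were used. Barcodes with at least 500 UMIs, 200 genes and no more than 10% mitochondrial UMIs entered (388 exceeded that limit). Barcodes with at least 10 times as many UMIs in another library (337) and 512 doublets called with scanpy 1.11.5 at 0.8% per 1000 cells were removed. Cells were gated by marker scores (at least 0.5, margin 0.25). Between 22.3% (Flt3 multipotent progenitor-like) and 98.5% (granulocyte-monocyte progenitor-like) of a group's cells fell in the cluster of the same name. For stem-like cells, the reference of several contrasts, it was 37.0%, with 54.8% in clusters given no name. Counts were summed per library and group and tested with edgeR 4.0.16 (TMM, quasi-likelihood, Benjamini-Hochberg threshold 0.05); DESeq2 1.42.0 was an alternative. The test was tried on simulated data. Replicates are 1 mouse each.

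The members, markers and lists were chosen with earlier results of these data known. Named genes were every member called between genotypes, the 5 largest rises and falls whose mean log2 CPM reached 5 in each cell group contrast, and a set list of subunits; other genes named for their isoform pattern were chosen after their values were seen. Promoters are from RefSeq (GRCm38.p6). Alternatives covered scaling, filters, gating, doublets, free RNA (from barcodes with at most 50 UMIs), the replicate number as a block, and leaving out each library.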

Additional observations from a re-analysis of the deposited data

Results flagged for a closer look

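Of the tests of whether the genotype difference changed between neighbouring cell groups, 6 mitochondrial genes passed. Idh1-R132H minus Idh1-WT was larger in neutrophil precursor-like than in granulocyte-monocyte progenitor-like cells by 0.61 for mt-Nd1, 0.52 for mt-Nd2, 0.88 for mt-Nd3, 0.40 for mt-Nd4 and 0.35 for mt-Cytb on the log2 scale. It was larger in neutrophil-like than in neutrophil precursor-like cells by 0.47 for mt-Atp6. Without Idh1-R132H 2 none of the 6 passed, and the 6 differences then ranged from 0.35 to 0.97. Without the 5% of cells with most mitochondrial UMIs none passed either, and the differences were 0.09 for mt-Nd1, 0.10 for mt-Nd2, 0.41 for mt-Nd3, 0.09 for mt-Nd4, 0.07 for mt-Cytb and 0.45 for mt-Atp6. With at most 5% mitochondrial UMIs per barcode none passed, and they were 0.18, 0.15, 0.51, 0.13, 0.06 and 0.53 in that order.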

How the results depend on the processing

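The counts of members called between cell groups stayed within 1.5 times of their value under every alternative run. Leaving out 1 library gave 61 to 64 for Flt3 multipotent progenitor-like, 87 to 89 for granulocyte-monocyte progenitor-like, 83 to 92 for neutrophil precursor-like, 75 to 80 for neutrophil-like, 66 to 72 for monocyte-like, 89 to 91 for erythroid progenitor-like, 70 to 75 for megakaryocyte progenitor-like and 59 to 62 for mature B-like cells. The genotype counts were less stable, and the cause was not tested. For granulocyte-monocyte progenitor-like cells (2 called) they were 6 with no filter on low counts, 1 with no mitochondrial limit, 1 with clusters in place of gates, 1 with the replicate block and 1 to 5 with a library left out. For neutrophil precursor-like cells (7) they were 3 with DESeq2, 1 with at most 5% mitochondrial UMIs, 0 with doublets kept, 4 with clusters, 4 with a gate margin of 0.5, 1 without the 5% of cells with most mitochondrial UMIs, 2 and 3 in the deeper and shallower cluster alone, and 1 to 4 with a library left out. For neutrophil-like cells (4) they were 2 with at most 5%, 0 with no limit, 2 after subtracting free RNA, 0 without the 5% of cells and 3 to 4 with a library left out, and for Flt3 multipotent progenitor-like cells 0 to 1.

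The difference between precursors and progenitors (5 called) gave 2 with DESeq2, 0 with at most 5%, 0 with no limit, 0 with doublets kept, 2 with clusters, 1 with the wider margin, 3 after subtracting free RNA, 0 without the 5% of cells and 0 to 4 with a library left out. The difference between neutrophil-like and precursor cells (1) gave 2 with RLE factors, 2 with library totals, 2 with at least 1000 UMIs and 3 with clusters. It gave 0 with at most 5%, at most 20%, with no limit, with doublets kept, with the wider margin, with carried-over barcodes kept and without the 5% of cells. After subtracting free RNA it gave 7, but mt-Atp6 then stood at 12.9 in place of 0.47. Such values depend on mitochondrial counts of neutrophil-like cells that the subtraction leaves near 0, so the 7 calls do not show a stronger difference. With a library left out mt-Atp6 gave 0.32 to 0.59. In the B line (0) DESeq2 gave 1, and leaving out a library 0 to 1.

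The ratio of mitochondrial to nuclear UMIs, Idh1-R132H minus Idh1-WT, was 0.0305 in granulocyte-monocyte progenitor-like cells, -0.00887 with no mitochondrial limit and 0.0218 to 0.0393 with a library left out. In neutrophil precursor-like cells it was 0.0942, and 0.0169 with at most 5%, 0.117 with at most 20%, 0.126 with no limit, 0.0830 with doublets kept, 0.0784 with clusters, 0.0682 with the wider margin, 0.105 after subtracting free RNA, 0.0236 without the 5% of cells, 0.0323 and 0.152 in the deeper and shallower cluster, and 0.0878 to 0.101 with a library left out. In neutrophil-like cells it was 0.198, and 0.130, 0.303 and 0.624 under those 3 limits, 0.270 with clusters, 0.0936 without the 5% of cells and 0.171 to 0.226 with a library left out.

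Among the named values called in the main setting, signs turned for 20, 23 times in all. Turned signs of named values that were not called were not counted. With library totals mt-Nd3 gave -0.064 from stem-like to granulocyte-monocyte progenitor-like cells, and in neutrophil precursor-like cells Cox6a1 gave -0.59, Ndufa3 -0.33, Ndufa13 -0.21, Ndufb7 -0.0092, Cox7a2 -0.72, Ndufs4 -0.31 and mt-Co1 -0.55. From precursors to neutrophil-like cells Cox4i1 gave 0.18 with RLE factors and 0.19 with DESeq2, and mt-Nd2 0.062 with at most 20% and 0.017 with doublets kept. With no mitochondrial limit the same step gave 0.57 for mt-Nd1, 0.61 for mt-Nd2, 0.14 for mt-Co2, 0.33 for mt-Atp6, 0.28 for mt-Co3, 0.40 for mt-Nd3, 0.024 for mt-Nd4l, 0.42 for mt-Nd4, 0.14 for mt-Nd5 and 0.55 for mt-Cytb. With clusters mt-Nd3 gave -0.014 in erythroid progenitor-like cells.

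The genotypes share replicate numbers, but same-numbered libraries correlated only at -0.156 to 0.0534, and no label says that the numbers pair them. The number 1 libraries shared 345 cell barcodes, and pairing beyond these checks was not tested. With the replicate block mt-Co2 kept 0.17 in granulocyte-monocyte progenitor-like cells at an edgeR adjusted p of 0.202. In neutrophil precursor-like cells mt-Co2 (0.34) and mt-Nd4 (0.37) had 0.0552. Neutrophil-like cells had a median of 1534 UMIs, so small differences there may not be detectable.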
